A study of Caenorhabditis elegans with 2 samples.

Results

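The regions described here are 320 places on the autosomes of the nematode Caenorhabditis elegans, away from the starts of protein-coding genes. At these places chromatin was recovered with the tagged transcription factor ETS-4. They came from chromatin immunoprecipitation sequencing (ChIP-seq), in which DNA bound by a protein is pulled down with an antibody and sequenced. The 2 samples were biological replicates of 1 group of whole hermaphrodite late embryos, taken 5 hours after synchronization by egg bleaching. Strain OP509, with the genotype unc-119(tm4063) III; wgIs509, carried an integrated transgene that makes ETS-4 with a C-terminal GFP-FLAG tag, and the antibody was against GFP. Both replicates carried the transgene, no untagged worms were analysed here, and which cells made the tagged protein is not stated in the sources used here. The list called on both replicates pooled held 12348 regions in the ce11 build, of which 10264 were on the autosomes and 1251 of these had a signal of at least 60.

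Signal is the peak caller's value for a region, as the authors gave it, and it chose the members together with their place. A summit, the point of highest signal in a region, was placed in a promoter window when it fell within 1000 bp before or 200 bp after the start of a protein-coding transcript. Of the 1251 strong regions, 863 had such a summit. A further 68 lay outside these windows but within 200 bp of a tRNA, snoRNA or snRNA gene and were left out. The remaining 320, 25.6% of the strong autosomal regions, are the members. They are set beside 5395 weak distal regions, which meet the same rule of place on the autosomes but have a signal under 60 and overlap no member, and beside 825 promoter regions with a signal of at least 60 and no small RNA gene nearby.

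ETS proteins share a winged-helix domain that contacts DNA around a GGAA core, and ETS-4 is known in worms for roles in axon regeneration, fat metabolism and lifespan. Introns and the DNA between genes can hold enhancers, promoters of internal or unannotated transcripts, and genes for noncoding RNA. In this species many messenger RNAs are trimmed and joined to a spliced leader, so the annotated start of a gene can lie away from the place where transcription begins. Broadly accessible DNA is often recovered in ChIP of many factors, so a region does not by itself show contact between the tagged protein and a site of its own.

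The sequences at the strongest members were varied: 6 of the 12 strongest and 13 of the 24 strongest held GAGAGA, and 8 chosen windows are shown. The bases 50 bp to each side of the summit are shown on the plus strand of ce11, from the RefSeq assembly. The first 4 hold GAGAGA, which the tests below turn on, and capitals mark GAGAGA or its complement TCTCTC and GCGTCTC or its complement GAGACGC.
pqn-41 (III:1925225-1925325, first intron): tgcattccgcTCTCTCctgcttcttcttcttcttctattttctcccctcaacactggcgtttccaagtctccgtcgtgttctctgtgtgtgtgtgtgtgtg
rho-1 (IV:16492469-16492569, intergenic): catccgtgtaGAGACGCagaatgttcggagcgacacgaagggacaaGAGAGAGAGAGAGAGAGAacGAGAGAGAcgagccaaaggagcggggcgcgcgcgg
mtm-3 (III:3801491-3801591, intergenic): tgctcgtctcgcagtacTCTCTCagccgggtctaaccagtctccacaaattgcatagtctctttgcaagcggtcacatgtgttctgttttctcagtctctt
fbxa-55 (III:931555-931655, intergenic): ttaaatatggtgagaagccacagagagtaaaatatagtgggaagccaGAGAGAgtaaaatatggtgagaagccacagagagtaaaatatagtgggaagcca
In the rho-1 window the GA tract runs through the centre, the pqn-41 window is pyrimidine-rich on this strand, and the fbxa-55 window is a short repeat unit copied several times. The next 3 hold neither word in their centre. Capitals mark the longest stretch that they share on either strand, which was looked for after their signals were seen.
Y56A3A.7 (III:11946497-11946597, intron): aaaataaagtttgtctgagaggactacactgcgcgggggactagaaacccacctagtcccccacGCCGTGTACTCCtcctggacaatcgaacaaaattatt
F58D12.3 (V:14055182-14055282, intergenic): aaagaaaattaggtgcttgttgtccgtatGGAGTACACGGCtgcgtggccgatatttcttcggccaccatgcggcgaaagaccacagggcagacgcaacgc
H12I13.1 (II:6061657-6061757, intergenic): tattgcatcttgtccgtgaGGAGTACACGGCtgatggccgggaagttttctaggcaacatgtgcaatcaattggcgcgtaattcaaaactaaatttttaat
The window at klp-6 lies in the gene of an RNA of the signal recognition particle, and it has no base in capitals.
klp-6 (III:5031442-5031542, intron): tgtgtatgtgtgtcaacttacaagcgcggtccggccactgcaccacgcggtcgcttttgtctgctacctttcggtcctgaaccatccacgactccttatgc

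Members were mostly intergenic or intronic and almost never in coding sequence. Intergenic here means outside protein-coding transcripts, so such a summit can lie in a noncoding gene. Of the 320 summits, 187 (58.4%, 95% Wilson interval 53.0 to 63.7%) were intergenic and 122 (38.1%, 32.97 to 43.6%) were in an intron of a protein-coding gene. Only 3 were in a coding exon (0.938%, 0.319 to 2.72%), 4 in a 5' UTR and 4 in a 3' UTR. Weak distal summits were intergenic in 35.8%, intronic in 37.98% and in coding exons in 20.8%. These intervals, and all tests across regions below, cover counting error only and describe these lists, since regions are not replicates of animals. The share in introns did not differ past the threshold (odds ratio 1.01, 95% Woolf interval 0.798 to 1.27; p = 0.953 by a two-sided Fisher's exact test). That comparison turned when coding exons and UTRs were left out of both groups, a setting chosen after the data were seen, and introns then held a smaller share of members than of weak regions (odds ratio 0.615, Fisher's exact p = 5.584e-05).

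**Figure D1:**
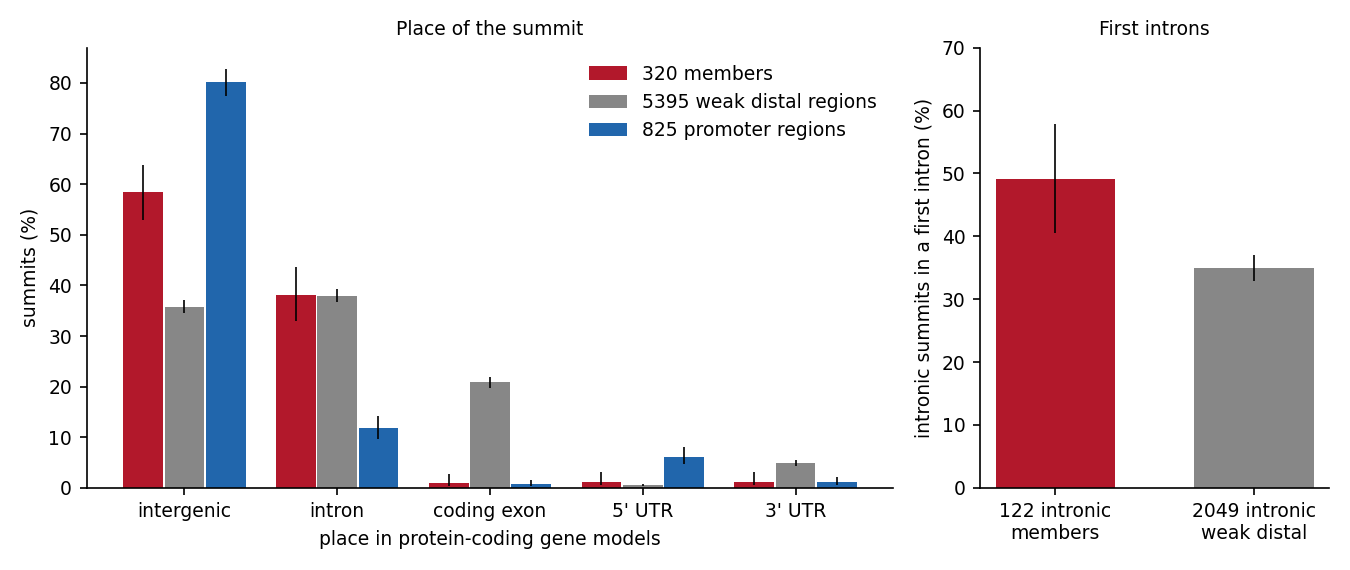
Bars give the percentage of summits by place in protein-coding gene models (left) and of intronic summits in a first intron (right), with 95% Wilson intervals; the left panel has members, weak distal and promoter regions, and the right panel members and weak distal regions. Introns hold 38.1% of members and 37.98% of weak distal regions, and coding exons 0.938% and 20.8%.

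Intronic members sat mostly in long introns of long genes, and often in a first intron, but the strongest did not follow this. An intron's number was the lowest over the host's protein-coding transcripts, so a first intron is first in some transcript and not necessarily in each. The median intron that held a member was 3649.5 bp long, against 1094 bp for intronic weak distal regions. Introns of at least 1000 bp held 94 of 122 members (77.0%). The strongest summits were in shorter ones, at klp-6 (665 bp), Y56A3A.7 (247 bp), W05H12.1 (677 bp), hmt-1 (803 bp) and Y39A1C.1 (353 bp). Of these only the intron of Y39A1C.1 was a first intron. The 97 host genes had a median length of 10650 bp against 1964 bp for all autosomal protein-coding genes. A host must hold intron sequence outside the windows at starts, so its length follows in part from the rule of place. Host length was not compared with that of genes hosting weak distal regions. The first intron held 60 of 122 members (49.2%, 95% Wilson interval 40.5 to 57.9%) and 716 of 2049 weak distal summits (34.9%). The odds ratio was 1.80 (95% interval 1.25 to 2.60), with p = 0.0018 by Fisher's exact test. The call was lost when promoter windows reached 2000 bp upstream (odds ratio 1.46, Fisher's exact p = 0.0902) and among windows of 40 to 50% GC (1.37, p = 0.27).

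The 187 intergenic summits were a median of 2369 bp from the nearest protein-coding start, with a range from 400 to 11552 bp. Over all members the summit was a median of 2124 bp from the nearest protein-coding start, with a range from 250 to 20261 bp, and 169 were over 2000 bp and 36 over 5000 bp away. The farthest was at III:2172206 in intron 11 of gcn-1. The farthest intergenic summit, at III:8865576, was 11552 bp from the start of K01F9.2. Of the 187 intergenic members, 137 were upstream of their nearest start. The genes on either side pointed the same way in 119 cases, away from each other in 48 (25.7%) and toward each other in 20 (10.7%). Weak distal regions had divergent genes in 32.5% and convergent genes in 12.4%. The gap between the flanking genes had a median of 6006 bp for members (209 to 26989 bp) and 7120 bp for weak distal regions.

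The strongest intronic members reached a signal of 272.3. The first 2 places by host gene went to klp-6, which encodes a kinesin of ciliated neurons, and Y56A3A.7. In the second intron of klp-6 the summit at III:5031492 had a signal of 272.3 in the pooled list, 142.1 in replicate 1 and 126.8 in replicate 2. A second summit in that intron, III:5031703, had a pooled signal of 253.0 and overlapped the same replicate regions, so it is not a separate observation in the replicates. Both lie in srpr-2.2, a gene for the RNA of the signal recognition particle, which brings ribosomes with secreted proteins to the endoplasmic reticulum.

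The third intron of Y56A3A.7 held a summit at III:11946547 with a pooled signal of 268.8, 120.8 in replicate 1 and 149.8 in replicate 2. In the fifth intron of W05H12.1, the summit at I:13421217 had 251.6 pooled, 134.2 in replicate 1 and 118.1 in replicate 2. The gene hmt-1, for an ABC transporter of heavy-metal tolerance, held a summit at III:11091854 with 242.9 pooled, 108.0 in replicate 1 and 135.9 in replicate 2. In these 3 genes both replicates were above 100, and neither replicate was always the higher. A further summit in hmt-1, III:11093665, had 162.1 pooled, 83.4 in replicate 1 and 80.8 in replicate 2. Y39A1C.1 held one at III:10857026 in its first intron, 250 bp inside the gene and the closest member to any start, with 228.4 pooled, 110.6 in replicate 1 and 114.0 in replicate 2.

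Other strong intronic members included those in ints-8 and larp-1. The first intron of ints-8, for a subunit of the Integrator complex that processes small nuclear RNA, held a summit at I:13463978 with 190.4 pooled, 108.5 in replicate 1 and 83.6 in replicate 2, within rpr-1, the gene of the RNase P RNA. In larp-1, for a La-related RNA-binding protein, the summit at III:5014056 had 176.1 pooled, 89.8 in replicate 1 and 82.8 in replicate 2. The summit in a long intron (7076 bp) of Y111B2A.12, III:12612674, had 197.3 pooled, 112.6 in replicate 1 and 81.0 in replicate 2, and its window held 5 GAGAGA matches. T28F4.1 held a summit at I:7475238 with 174.6 pooled, 69.98 in replicate 1 and 111.3 in replicate 2, the widest gap between replicates among the strongest intronic members. In pqn-41, for a glutamine-rich protein needed in a programmed cell death, III:1925275 had 160.6 pooled, 76.9 in replicate 1 and 88.4 in replicate 2.

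The strongest intergenic members had signals of the same size. The highest member of all, I:933517, lay 4966 bp upstream of nas-30, an astacin-type metalloprotease, with 280.7 pooled, 187.8 in replicate 1 and 113.5 in replicate 2. Its window was 70.6% masked as repeats in the assembly and shared 40 bases without a mismatch with the window at fbxa-55. The central 50 bases had no exact copy elsewhere. F58D12.3 was nearest to V:14055232, with 261.0 pooled, 120.6 in replicate 1 and 140.2 in replicate 2. H12I13.1 was nearest to II:6061707, with 245.5 pooled, 88.4 in replicate 1 and 152.5 in replicate 2. The order of these members therefore depended on the replicate, since nas-30 led in replicate 1 and H12I13.1 in replicate 2.

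The next members had pooled signals from 174.0 to 194.3. The summit at V:1151500, nearest to cmd-1 (calmodulin) and inside the noncoding gene linc-128, had 194.3 pooled, 101.7 in replicate 1 and 94.3 in replicate 2. V:1197424, nearest to Y50D4A.6, had 189.7 pooled, 96.3 in replicate 1 and 94.4 in replicate 2. III:6013198, nearest to eftu-2, a GTPase of the spliceosome, had 183.1 pooled, 94.6 in replicate 1 and 85.6 in replicate 2. The windows at these last 2 were repeats: they shared 92 bases without a mismatch, and the central 50 bases of each had 21 exact copies elsewhere in the genome, 19 of them inside other pooled regions. III:931605, nearest to fbxa-55, an F-box gene, had 174.0 pooled, 106.9 in replicate 1 and 81.6 in replicate 2. How the authors' pipeline placed reads that match several copies is not given in the sources used here.

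The remaining strong intergenic members had pooled signals from 152.4 to 170.9. IV:14033714, 10066 bp from Y37A1B.7, had 170.9 pooled, 73.5 in replicate 1 and 106.3 in replicate 2. IV:16492519, 3498 bp upstream of rho-1, a small GTPase that controls actin and cytokinesis, had 159.8 pooled, 87.4 in replicate 1 and 73.4 in replicate 2. III:3801541, 1074 bp upstream of mtm-3, a myotubularin phosphatase of membrane lipids, had 155.4 pooled, 64.2 in replicate 1 and 87.9 in replicate 2. Its distance is just past the promoter window. II:11749911, 1300 bp upstream of gpb-1, a G protein beta subunit, had 154.0 pooled, 92.4 in replicate 1 and 69.0 in replicate 2. III:13062698, 7256 bp upstream of F54F12.1, had 152.4 pooled, 70.3 in replicate 1 and 87.1 in replicate 2.

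**Figure D2:**
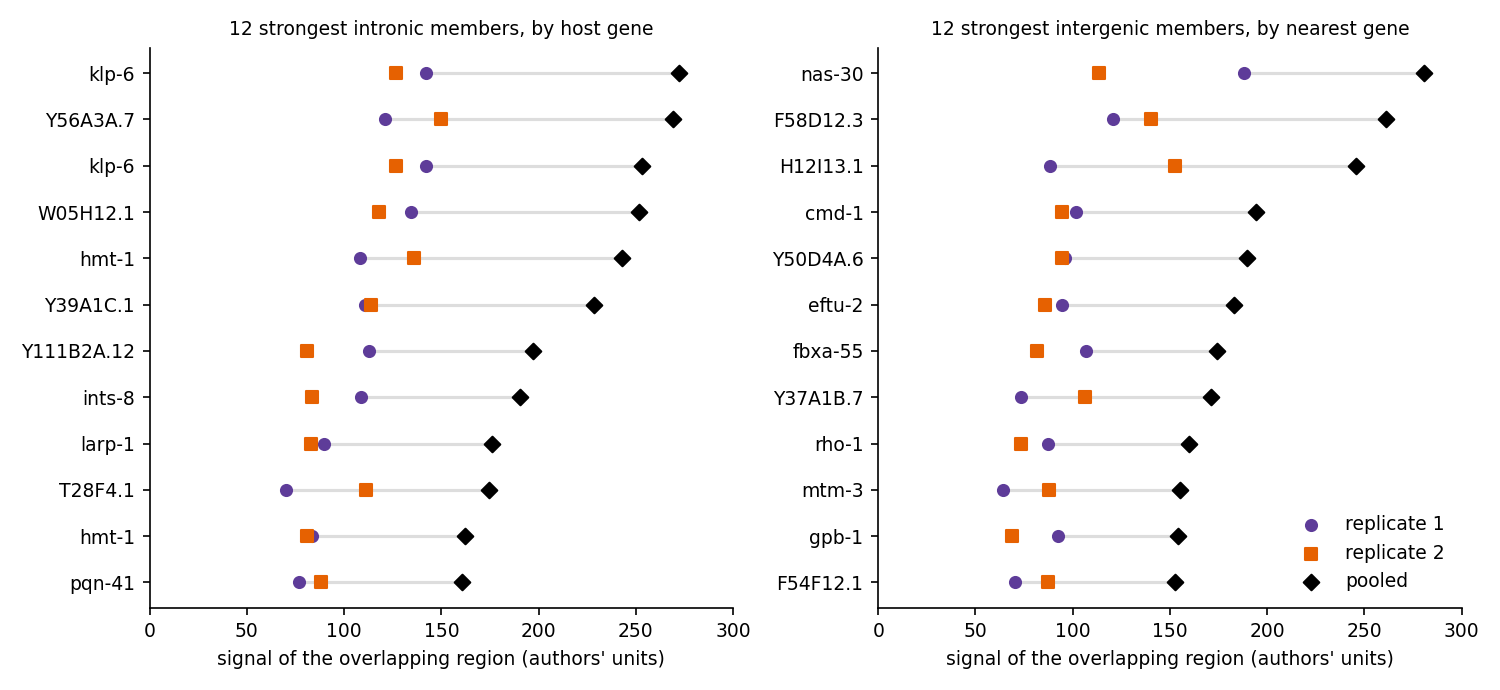
Each row is one of the 12 strongest intronic (left) or intergenic (right) members, with the signal of the region in replicate 1, replicate 2 and the pooled list on the axis in the authors' units; a grey line joins replicate 1 to the pooled value. The pooled value is above both replicates in every row, and nas-30 and H12I13.1 show replicate differences in opposite directions.

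Few members touched exons of protein-coding genes, and the 3 with the highest signal differed in kind. III:7729732, in a coding exon of ZK112.4 279 bp from its start, had 128.1 pooled, 59.6 in replicate 1 and 69.9 in replicate 2. III:6421182, in the 3' UTR of C05D11.8 and upstream of atgl-1, a triglyceride lipase of fat breakdown, had 101.02 pooled, 54.9 in replicate 1 and 42.3 in replicate 2. I:9076322, in the 5' UTR of rsbp-1, an anchor of regulators of G protein signalling, had 95.8 pooled, 47.9 in replicate 1 and 47.4 in replicate 2. All 11 exonic or UTR members had a region in both replicates.

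The members' signals ran from 60.1 to 280.7 with a median of 79.9. Intronic members had a median of 80.5 and intergenic members one of 79.0. Promoter regions, chosen with the same floor, had a median of 94.9, and weak distal regions one of 29.2. The floor did not fall at a gap. Just inside it were II:5228054 nearest to EGAP2.2 (60.43), III:7728596 in ncl-1 (60.15) and III:5233281 in prmt-5 (60.11). Just outside were III:2679691 in let-805 (59.94), III:2576863 nearest to Y54F10AR.1 (59.79) and II:12778556 in Y46G5A.34 (59.75).

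All 320 members were overlapped by a region of replicate 1, where 73.5% of all autosomal pooled regions were, and 319 by a region of replicate 2, where 70.8% were. The rule used the pooled signal, which came from both replicates, so these counts follow in part from the choice. The exception was V:265669, nearest to lgc-26, a ligand-gated ion channel, with 55.5 in replicate 1 and no region in replicate 2. In replicate 1 the members' signals ran from 16.6 to 187.8 with a median of 40.7, and in replicate 2 from 15.9 to 152.5 with a median of 43.8. Across the 319 members with both, the replicate signals had a Spearman coefficient of 0.53 and a Pearson coefficient of 0.61 on the log2 scale. The points share the pooled choice, and 20 members share a replicate region with another member. For 122 intronic members the Spearman coefficient was 0.50, and for 186 intergenic members 0.55.

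After the median difference between replicates (0.08 on the log2 scale) was removed, 247 members (77.4%) were within 1.5-fold and 17 were more than 2-fold apart. In the list selected by the irreproducible discovery rate (IDR), which keeps regions that rank alike in replicates, there were 206 members (64.4%), where 9.06% of autosomal pooled regions were. These were the 206 members at or above the lowest signal of that list, 71.1, so its content repeats the pooled signal that chose the members. Of intronic members 82 of 122 were in it, and of intergenic members 117 of 187.

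**Figure D3:**
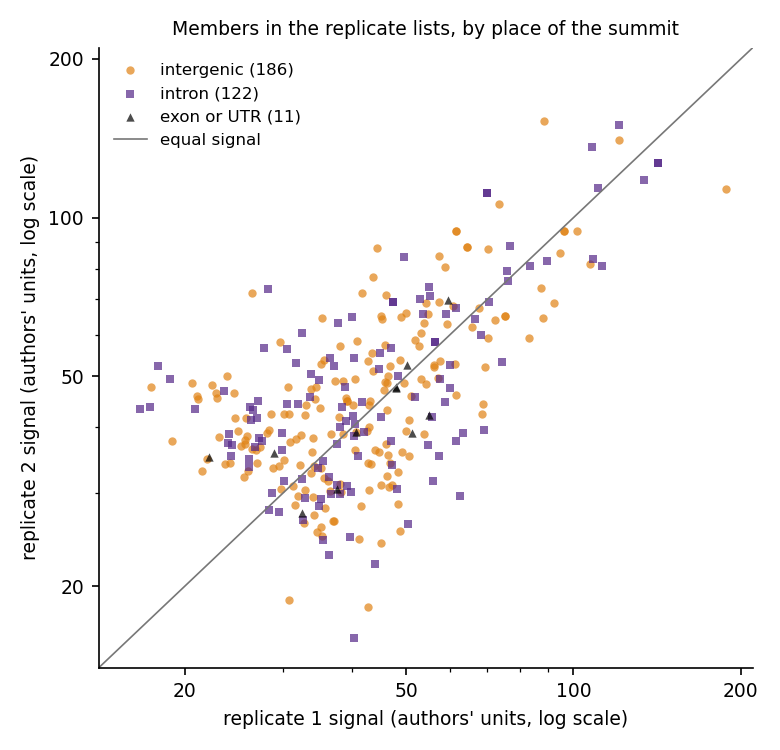
Points are the 319 members with a region in both replicates, by signal in replicate 1 and replicate 2 in the authors' units on log scales, with symbols for the place of the summit and a line of equal signal. Of intronic members 72.1% were within 1.5-fold and 9 of 122 over 2-fold apart, and of intergenic members 78.0% and 7 of 186, a difference that was not tested.

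Distal regions were recovered less often than promoter regions when one replicate chose them and the other was read. Among the 1251 strongest autosomal regions of replicate 1, 338 were distal by the same rule of place, and 205 of them (60.7%, 95% Wilson interval 55.4 to 65.7%) overlapped one of the 1251 strongest of replicate 2. Promoter regions chosen in the same way were recovered in 597 of 804 cases (74.3%, 71.1 to 77.2%). The odds ratio was 0.534 (95% interval 0.408 to 0.700), with p = 7.379e-06 by Fisher's exact test. With replicate 2 choosing and replicate 1 read, 199 of 349 distal regions (57.0%) and 592 of 810 promoter regions (73.1%) were recovered (odds ratio 0.489, Fisher's exact p = 1.084e-07). Recovery depends on how far a region lies above the cut. In the pooled list promoter regions had a higher median signal (94.9) than members (79.9), and recovery was not compared at matched signal.

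A GA repeat marked most members. GAGAGA or its complement lay within 100 bp of 199 of 320 summits (62.2%, 95% Wilson interval 56.8 to 67.3%), against 18.999% of weak distal and 32.1% of promoter summits. The word GCGTCTC, part of a longer promoter word of this species, was at 77 members (24.1%), 4.62% of weak distal and 15.4% of promoter regions. These words can overlap, and 65 members held both, whereas 109 (34.1%) held neither, against 79.1% of weak distal and 62.1% of promoter regions. In the 50 bp bin at the summit 31.3% of members held GAGAGA, and 3.75% did in the bin 500 bp to the right.

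The tests covered 15 words, each searched on both strands in the 201 bp window, with Benjamini-Hochberg adjustment of Fisher's exact tests over the 15. Against weak distal regions, 3 words (20% of those tested) were more frequent at members. By adjusted Fisher's exact p, they were GAGAGA (odds ratio 7.01, 95% interval 5.54 to 8.88, adjusted p = 1.157e-58), GCGTCTC (6.55, 4.92 to 8.72, adjusted p = 4.786e-29) and CCGCCC, the box of SP1/KLF factors (16.3% against 6.77%, 2.67, 1.95 to 3.67, adjusted p = 8.618e-08). Another 4 (26.7%) were less frequent. These were TTTTCAG, the splice acceptor word (4.38% against 14.6%, odds ratio 0.268, adjusted Fisher's p = 5.498e-08), TAATTA, bound by homeodomain factors (1.88% against 9.14%, 0.190, adjusted p = 1.047e-06), TGATAA, bound by GATA factors (6.25% against 15.4%, 0.367, adjusted p = 3.621e-06), and CGGAT, a variant ETS core (13.8% against 19.1%, 0.676, adjusted p = 0.039). The last call did not hold without replicate 1 (odds ratio 0.925, adjusted Fisher's exact p = 0.715).

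The GA repeat also set members apart from promoters of the same signal floor. There 2 words (13.3% of 15) were more frequent at members, GAGAGA (62.2% against 32.1%, odds ratio 3.48, 95% interval 2.66 to 4.55, adjusted Fisher's p = 3.894e-19) and GCGTCTC (24.1% against 15.4%, 1.74, adjusted p = 0.0029). Another 2 (13.3%) were less frequent, TTTTCAG (4.38% against 14.2%, 0.277, adjusted Fisher's exact p = 5.865e-06) and TAATTA (1.88% against 7.52%, 0.235, adjusted p = 6.351e-04). The rule of place keeps promoter summits near annotated starts and members away from them. Whether the share of TTTTCAG, the splice acceptor word, follows from that place was not tested. Weak distal summits differ in place too, with 20.8% in coding exons against 0.938% of members.

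No form of the ETS site passed as more frequent at members, and CGGAT, the variant core of SPDEF-type ETS factors, was the 1 called less frequent than at weak distal regions (above). GGAA was within 100 bp of 83.8% of member summits, 87.1% of weak distal and 81.7% of promoter summits, with odds ratios of 0.765 (95% interval 0.562 to 1.04, adjusted Fisher's exact p = 0.166) and 1.15 (0.817 to 1.63, adjusted p = 0.802). The longer site CCGGAA was at 8.13%, 8.23% and 5.45% (adjusted Fisher's exact p = 1 and 0.305). The full consensus CCGGAAGT was at 1 of 320 members, V:1427382 nearest to R12A1.3. A match describes the letters and is not a bound site. GGAA is part of both longer words, and a short word is found in most windows of this length, so its shares say little about single sites. Within 50 bp of the summit GGAA was less frequent at members than at weak distal regions (odds ratio 0.729, adjusted Fisher's exact p = 0.0148), and also without replicate 1 (0.684, adjusted p = 0.0267). The words TGANTCA (AP-1), CANNTG (E-box), TGTTTAC (forkhead), TTGCGCAA (C/EBP) and AGGTCA (nuclear receptors) passed in neither comparison, but without replicate 2 TGANTCA (odds ratio 0.458, adjusted Fisher's exact p = 0.0457) and AGGTCA (0.446, adjusted p = 0.0393) passed as less frequent than at weak distal regions.

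Member windows were richer in G and C, which moved with these shares. Their mean GC content was 47.6% ± 6.75 (SD over 320 windows), against 39.9% ± 9.38 for weak distal and 42.7% ± 7.46 for promoter windows. Among windows of 40 to 50% GC, GAGAGA was at 65.7% of 169 members, 29.1% of 1673 weak distal and 37.0% of 341 promoter regions, with odds ratios of 4.66 (adjusted Fisher's p = 2.501e-19) and 3.27 (adjusted p = 1.708e-08). GCGTCTC stayed more frequent than at weak distal regions there (odds ratio 3.53, adjusted Fisher's exact p = 7.246e-08) but not than at promoters (1.56, adjusted p = 0.342). The calls for CCGCCC (odds ratio 1.28, adjusted Fisher's exact p = 0.619), TGATAA (0.482, 0.103), TAATTA (0.326, 0.148) and CGGAT (0.645, 0.146) were lost against weak distal regions in that range. In windows of 30 to 40% GC, which held 40 members and were not tested, CCGCCC was at 22.5% of members and 4.15% of weak distal regions. There TTTTCAG was at 17.5% of members, 18.4% of weak distal and 18.6% of promoter regions, and GCGTCTC at 7.5%, 2.17% and 8.49%. GAGAGA was there at 30% of members, 14.01% of weak distal and 17.6% of promoter regions. Windows of 50 to 60% GC held 97 members and were not tested either, and members lay nearer to promoters there. GAGAGA was at 70.1% of members, 27.1% of weak distal and 55.8% of promoter regions in that range. In the same order, GCGTCTC was at 32.99%, 8.25% and 30.2%, and TTTTCAG at 1.03%, 3.22% and 4.65%. CCGCCC was less frequent at members (17.5%) than at promoters (30.2%) there, with 13.7% of weak distal regions. Against promoters the call for TAATTA at 40 to 50% GC was lost too (0.542, adjusted Fisher's exact p = 0.625).

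**Figure D4:**
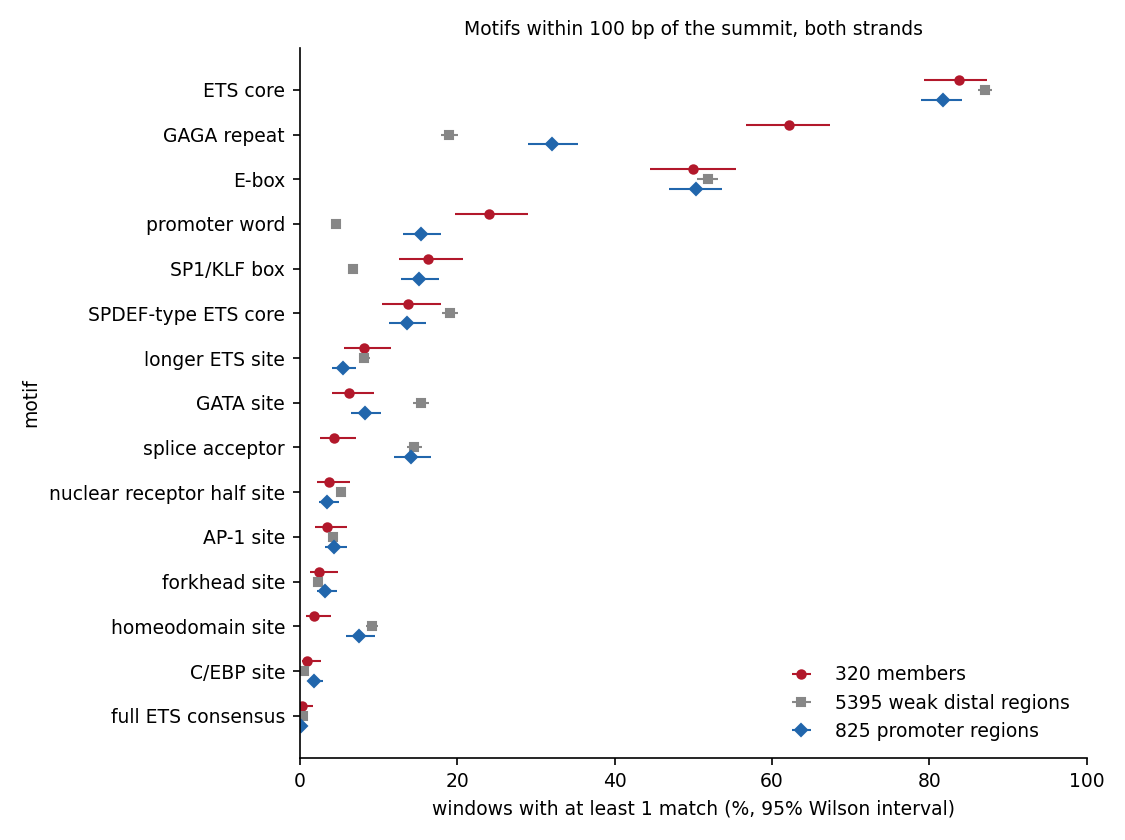
Points give the percentage of windows with at least 1 match to each of the 15 words within 100 bp of the summit, with 95% Wilson intervals, for members, weak distal regions and promoter regions. The GAGA repeat is at 62.2% of members, 32.1% of promoter and 18.999% of weak distal regions, and the ETS core is above 80% in each group.

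Long GA tracts were less common. An alternating run of at least 12 bases was within 35 member windows (10.9%), 2.35% of weak distal and 2.91% of promoter windows. Members with GAGAGA had a median of 2 matches, and the most, 15, were at IV:10252577 in the first intron of daf-14, a Smad protein of TGF-beta signalling. By signal, GAGAGA was at 62.3% of the upper, 70.8% of the middle and 53.7% of the lower 3rd of members. Windows at least 50% masked as repeats in the assembly were 9.06% of members, 22.5% of weak distal and 20.4% of promoter regions.

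**Figure D5:**
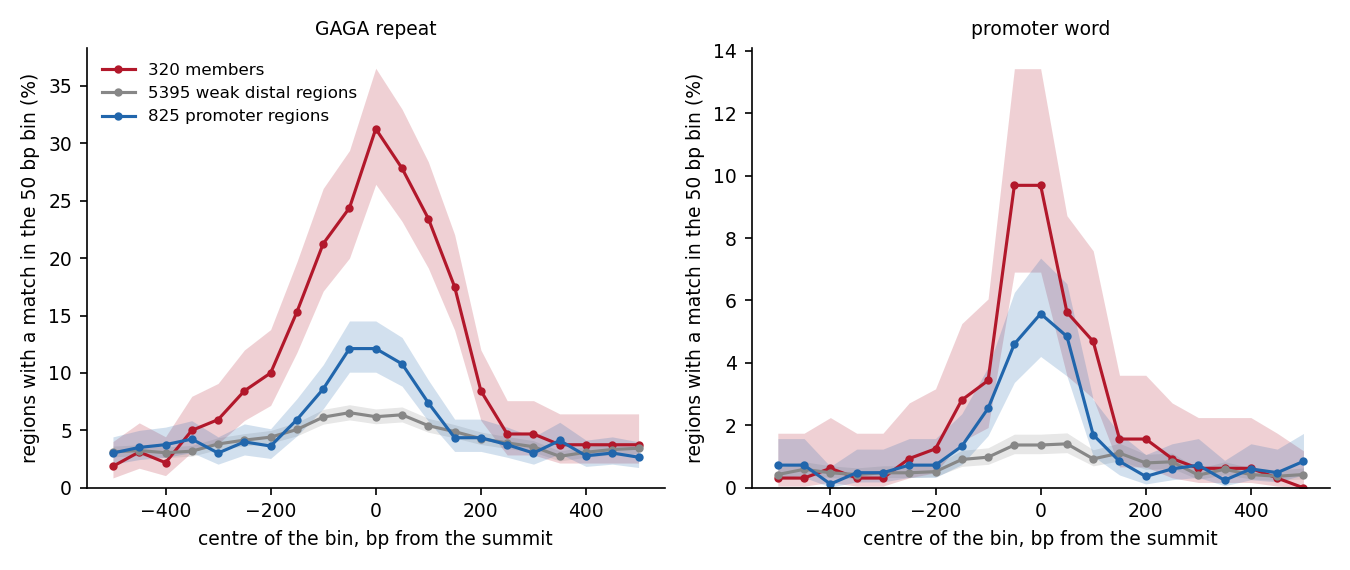
Lines give the percentage of regions with a match in bins of 50 bp, by distance of the bin's centre from the summit, for the GAGA repeat (left) and the promoter word (right), with 95% Wilson intervals shaded. Members are highest in the summit bin for the GAGA repeat (31.3%) and equally high in the summit bin and the one 50 bp to its left for the promoter word (9.69%), and at 500 bp to the right the GAGA repeat is at 3.75% of members, 3.45% of weak distal and 2.67% of promoter regions.

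No word differed past the threshold between intronic and intergenic members. Of 15 words, 0 (0%) were more frequent and 0 (0%) less frequent in intronic members after adjustment of Fisher's exact tests, and 1 had an unadjusted p under 0.05. That was GAGAGA, at 54.9% of 122 intronic and 67.9% of 187 intergenic members (odds ratio 0.576, 95% interval 0.359 to 0.921, unadjusted Fisher's p = 0.0227, adjusted p = 0.34). GCGTCTC was at 24.6% and 24.1% (odds ratio 1.03, 95% interval 0.605 to 1.75). GC content was 47.4% ± 7.35 (SD) in intronic and 47.8% ± 6.30 in intergenic windows.

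Genes for noncoding RNA were frequent under the summits. Of 320 members, 48 (15%) had the summit in an exon of an annotated noncoding transcript, against 4.87% of weak distal and 8.36% of promoter regions, a count made after the data were seen and not tested. Most, 42, were of the unspecified class ncRNA, 3 were long intergenic RNAs, 2 antisense RNAs, 1 a microRNA and 1 a pseudogene, with 1 summit counted in 2 classes. Among the 12 strongest members 4 had the summit in such an exon, and among the 24 strongest 6. Both counts include the 2 summits in srpr-2.2, which overlap the same replicate regions. The groups also differ in place, with 20.8% of weak distal and 0.938% of member summits in coding exons. Noncoding shares were not compared at matched place. Besides srpr-2.2 and rpr-1, the signal recognition particle genes srpr-2.1 (128.2 pooled, 72.4 in replicate 1, 63.8 in replicate 2) and srpr-1.1 (73.7 and 64.5 at summits in or beside it, over the same replicate regions) carried members. The like genes srpr-1.2 (37.7) and srpr-3 (38.4) had regions under the threshold, yrn-1, a Y RNA gene, had no region, and mrpr-1, for the RNase MRP RNA, had 105.2 in a promoter window.

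Near-identical copies limit the values at these genes. The windows at klp-6 and at srpr-2.1 shared 128 bases, so reads from one may have been placed at the other. Over all members, 12 had an exact copy of their central 50 bases elsewhere in the genome. A microRNA gene, mir-51, held the summit at IV:11026104 (117.7 pooled, 54.8 in replicate 1, 65.5 in replicate 2).

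The 12-base stretch marked in the sequences above recurred at other regions. GGAGTACACGGC or its complement was within 100 bp of 4 member summits, the 3 shown and II:7397679 nearest to C07D10.1 (99.2). Among all 1251 strong autosomal regions it was at 20 (1.6%), 16 of them in promoter windows, and at 9 of 9013 autosomal regions under the threshold (0.0999%). The autosomes held 79 copies, of which 30 lay within 100 bp of a pooled summit. Of the 20 strong regions with it, 0 were near a tRNA, snoRNA or snRNA gene. Because the stretch was picked from the strongest members, these shares are a description only.

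Some genes gathered several members. In pqn-41 all 4 summits were in the same intron, 7776 bp long and counted as first by the rule above, with pooled signals from 109.2 to 160.6. W05H12.1 held 4 members (66.0 to 251.6) within a gene of 4920 bp, 2 of which share their replicate regions. The others with 4 were Y67D8A.2 (60.9 to 74.8, in a gene of 30165 bp) and ppfr-1, for a regulatory subunit of protein phosphatase 4 (66.5 to 134.7, in 25884 bp). With 3 there was let-526, a subunit of the SWI/SNF chromatin remodelling complex (66.5 to 108.6). By nearest start, K08F11.1 (65.8 to 84.8), W04D12.1 (76.5 to 109.9) and shn-1, for a Shank scaffold protein of synapses (63.998 to 121.2), had 3 each. In W04D12.1 and shn-1 all were intergenic, in gaps of 11654 and 19117 bp.

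In all, 292 of 17242 autosomal protein-coding genes (1.69%) hosted a member or were nearest to one, and each gene list below is given with its own share and median gene length. Genes of Wnt, Notch, TGF-beta and Ras signalling had 9 of 54 (16.7%), with a median length of 4929 bp against 1964 bp for all genes. The highest were daf-4, the type II TGF-beta receptor (115.4 pooled, 48.9 in replicate 1, 64.8 in replicate 2), mpk-1, the ERK kinase (111.1, 69.0, 39.6), lin-17, a Frizzled receptor (102.9, 44.9, 55.3), and daf-14 (80.2, 47.0, 37.7), values in the same order. The other 5 were lag-1, lit-1, lip-1, gap-3 and wrm-1. Intronic hosts and distal nearest genes were mixed in this list, as 6 of the 9 hosted a member and daf-4, lip-1 and wrm-1 were only nearest to one.

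Transcription factor lists lay on both sides of the share of all genes. The list named for bHLH, T-box, forkhead, GATA, ETS and SOX genes had 4 of 66 (6.06%), at a median length of 1987 bp. They were tbx-2, needed for the pharynx (96.5 and 72.2), pha-4, the FoxA selector of the pharynx (66.9), skn-1 (61.3) and fkh-7 (61.2). The list also holds genes outside the families in its name, as skn-1 encodes an Nrf-type factor. Nuclear receptor genes had 6 of 247 (2.43%, median length 2253 bp), led by nhr-20 (85.5), nhr-21 (81.9), nhr-46 (74.8) and nhr-61 (67.5). Homeobox genes had 1 of 70 (1.43%, 3390.5 bp), ceh-43 (65.4), the Distal-less gene. The members at tbx-2 lie in introns of other genes, 6797 and 4311 bp from its start.

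The other lists ranged from 0% to 5.41%, and none was tested. Muscle structure had 2 of 37 (5.41%, median length 6039 bp), lev-11, tropomyosin (77.0), and act-1, actin (71.4 and 70.3). Chromatin regulators had 2 of 75 (2.67%, 3954 bp), the demethylase gene jmjd-2 (92.0) and the remodeller chd-7 (87.3). Axon guidance and adhesion had 1 of 49 (2.04%, 12469 bp), the plexin gene plx-1 (68.3). Ion channels and synaptic proteins had 1 of 165 (0.606%, 4795 bp), which was lgc-26 (70.5). Ribosomal proteins had 1 of 80 (1.25%, 755 bp), rpl-21 (61.6). Cuticle collagens had 0 of 145 (1234 bp).

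Of 13 autosomal genes linked to ETS-4 in the literature on axon regeneration, fat and lifespan, 2 (15.4%) were nearest to a member, and the list had a median length of 7002 bp. They were efa-6, a brake on axon regrowth (103.2 pooled, 57.1 in replicate 1, 49.6 in replicate 2), and dlk-1, the kinase that starts regrowth (63.4, 31.3 and 31.0, at 3067 bp). The efa-6 summit was at a distance of 6938 bp, in a window 91.0% masked as repeats. Its central 50 bases had 1 exact copy elsewhere. The dlk-1 region was near the signal floor and not in the IDR list. One further host was chosen after its values were seen. The gene rege-1, whose RNase is known to degrade ets-4 messenger RNA, held I:6958916 in intron 4 of 10, with 127.8 pooled, 55.2 in replicate 1 and 71.1 in replicate 2.

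Chromosome III held the most members. It had 109 of 320 (34.1%) on 16.7% of autosomal length, which is 7.91 per Mb, against 66 on I, 44 on II, 59 on IV and 42 on V. Weak distal regions had 22.5% and promoter regions 26.2% on III. The stretch from 4 to 6 Mb of III had 39 members (12.2%), 4.82% of weak distal and 8.36% of promoter regions. Without it the motif counts against both groups were the same as with it, 7 and 4 of 15 words.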

How the data were processed

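Regions came from 4 lists in ce11 coordinates, 1 per replicate, 1 pooled and 1 selected by IDR, made by the authors from alignments and a control file, per the deposited readme texts. The signal value and the −log10 q of each region are the authors' own, as deposited. Aligner, caller and versions are not named in the labels or readme texts. The lists hold no read counts, so depth is unknown. The authors' normalization between lists is not stated, so signals set side by side across the replicate and pooled lists are descriptions, and the fold between replicates was taken after removing their median difference. No value column was left without a sample or pool (0). Places came from the Ensembl 115 annotation and sequence from the RefSeq assembly of the same build. Overlap meant at least 1 bp. Differences between shares were tested by Fisher's exact test, two-sided (SciPy 1.17.1, NumPy 2.4.6, Python 3.11.15), with Benjamini-Hochberg adjustment over 15 motifs at 0.05. Figures used matplotlib 3.10.9. The motif test was tested on simulated data, with 1 motif planted in 64 of 320 windows, which was called in 20 of 20 draws.

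The members, gene lists and tests were chosen with earlier results of these data known. Genes were named by a rule: the 12 intronic and 12 intergenic members of highest signal, the 3 highest exonic or UTR members, genes with 3 or more members, 3 regions on each side of the threshold, and up to 4 genes of each list by signal. Other named members are said to be chosen after their values were seen, or carry a count, an extreme value, a sequence copy or a structural RNA. Alternatives were other promoter windows, thresholds, motif windows, start sets and overlaps, each replicate alone, and leaving out part of chromosome III. The lists in the older build were not used here.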

Additional observations from a re-analysis of the deposited data

How the results depend on the processing

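The number of members was 159 at a signal of at least 80 and 92 at 100, and from 338 to 349 when 1 replicate alone chose the regions. The odds ratio of the intron share ranged from 0.995 to 1.05 with 1 replicate, and turned to 0.615 (Fisher's exact p = 5.584e-05) for intron and intergenic summits only. The first-intron odds ratio ranged from 1.83 to 2.25 with 1 replicate, and missed the threshold with windows reaching 2000 bp upstream (1.46) and at 40 to 50% GC (1.37). Against weak distal regions 7 words were called, from 7 to 9 with 1 replicate, 3 at a signal of at least 100 and 3 at 40 to 50% GC. Against promoters 4 were called, also with either replicate, and 2 at a signal of at least 100, 2 within 50 bp of the summit and 2 at 40 to 50% GC. Settings that keep fewer regions have less power. The odds ratios moved as well, as for first introns, from 1.80 in the main setting to 1.37 at 40 to 50% GC. Why calls were lost was not tested. Between intronic and intergenic members 0 words were called under each alternative run. The recovery odds ratio stayed below 1, from 0.431 to 0.748 over its alternatives. The GC range and the restriction to intron and intergenic summits were chosen after the data were seen. No paired analysis was possible because there was 1 group only.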

Other observations

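On the X chromosome, which the members leave out by rule, 78 regions met the same rule of signal and place.

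Some members lay close together: 28 summits were within 1000 bp of another member summit. The 4 members with the largest ratio between replicate signals had pooled signals from 61.1 to 97.2. The summit nearest to Y62E10A.13 had 17.9 in replicate 1 and 52.3 in replicate 2, cec-1 had 17.4 and 47.7, hif-1, the hypoxia-inducible factor gene, had 26.4 and 71.9, and pkg-2 had 18.8 and 49.5. All 4 were higher in replicate 2, and they were picked for this ratio.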
